A study of Homo sapiens with 12 samples.

Results

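The kinesin superfamily on these arrays was defined by name: a probe belonged to it when its gene symbol began with KIF or KIFC followed by a digit. This gave 59 probes of 38 genes among the 48797 probes of the array. The list of mitotic kinesins held 10 genes, KIF2C, KIF4A, KIF11, KIF14, KIF15, KIF18A, KIF20A, KIF22, KIF23 and KIFC1, and was set against all other kinesins. KIF22 had no probe under that symbol, so 9 mitotic genes with 12 probes stood against 29 other genes with 47 probes. A gene was tested when its probe read at least 64 on 3 or more of the arrays, 12 in all. All 9 mitotic kinesins and 14 of the 29 others met it, together 23 of the 11443 genes tested.

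The study used HT1080, an established human fibrosarcoma line, transduced with retrovirus to express a tagged form of ING2, a chromatin protein that binds methylated histone H3 and the nuclear lipid phosphatidylinositol-5-phosphate. Cells labelled ING2_6K carried the 6K/Rmt mutant, in which basic residues of the lipid-binding region were replaced with alanine. Cells labelled ING2_WT carried wild-type ING2. Per the study's text, the cell's own ING2 protein was reduced in both lines, so that most ING2 was the introduced form. Each was given etoposide (100 uM), which traps topoisomerase II on broken DNA, or the vehicle DMSO for 16 h per the labels, whereas the text of the study gives another duration for its expression arrays. The 4 groups were ING2_6K with etoposide, ING2_6K with DMSO, ING2_WT with etoposide and ING2_WT with DMSO, with 3 Illumina BeadArrays each. Separate cultures for the arrays of a group are not stated in the labels. A legend of the study calls replicates of an expression display biological, without saying how the cells were grown, and the p-values describe the spread between these arrays. Where a transcript was lower in such bulk RNA, fewer cells holding it and less of it per cell cannot be told apart.

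Kinesins are motor proteins that walk along microtubules or take their ends apart, driven by ATP. Transport kinesins carry organelles, vesicles and messenger RNAs through cells at all times. Mitotic kinesins build the spindle, move chromosomes and drive cytokinesis, and their genes are transcribed mainly late in the cell cycle. Promoters of many late cell cycle genes hold a cell cycle genes homology region (CHR), bound by the MuvB core of the DREAM and B-MYB complexes, and CCAAT boxes, bound by NF-Y.

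Both motifs were looked for in RefSeq promoters (GRCh38.p14), each a window of 300 bases with 250 before and 50 after a transcription start. The CHR was searched as TTTGAA and the box as CCAAT, on both strands, and no CHR overlapped a CCAAT box in a kinesin promoter. All 9 mitotic kinesins matched, with 1 promoter each, whereas the tested other kinesins gave 13 promoters of 10 genes. TTTGAA lay in 7 of the 9 mitotic promoters and in 1 of those 13, against 15.2% of all 35116 promoters. CCAAT lay in 7 of the 9 and in 5 of the 13, against 34.6% of all promoters. Both were held by 6 of the 9 mitotic promoters and by 1 of the 13, against 5.9% of all promoters. The letters TTTNNCGC, a form of the E2F site, lay in 1 of the 9 and 1 of the 13, against 6.89% of all promoters. A match is a description of these letters and not a measured binding site.

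The windows below show the range of arrangements, with CHR and CCAAT matches in capitals on whichever strand they lay (TTCAAA and ATTGG are the reverse complements). KIF4A (chrX:70289854-70290153, plus strand) and KIF23 (chr15:69414099-69414398, plus strand) held both motifs close together. KIF20A (chr5:138178862-138179161, plus strand) held matches to CCAAT alone, and KIF2C (chr1:44739587-44739886, plus strand) held no match to either. No form of the CHR other than TTTGAA was searched. KIF5B (chr10:32056376-32056675, minus strand) is shown as the tested kinesin outside the mitotic list that held both.
KIF4A: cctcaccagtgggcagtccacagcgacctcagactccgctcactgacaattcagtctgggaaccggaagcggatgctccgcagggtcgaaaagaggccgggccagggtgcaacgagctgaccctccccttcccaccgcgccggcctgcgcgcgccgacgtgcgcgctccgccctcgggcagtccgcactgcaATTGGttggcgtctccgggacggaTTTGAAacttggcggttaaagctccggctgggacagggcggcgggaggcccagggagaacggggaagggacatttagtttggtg
KIF23: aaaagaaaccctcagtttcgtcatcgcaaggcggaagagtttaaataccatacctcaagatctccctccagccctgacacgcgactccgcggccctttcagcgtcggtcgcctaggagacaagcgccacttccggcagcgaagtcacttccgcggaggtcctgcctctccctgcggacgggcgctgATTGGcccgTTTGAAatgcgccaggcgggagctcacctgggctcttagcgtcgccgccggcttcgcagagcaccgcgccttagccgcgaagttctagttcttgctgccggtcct
KIF20A: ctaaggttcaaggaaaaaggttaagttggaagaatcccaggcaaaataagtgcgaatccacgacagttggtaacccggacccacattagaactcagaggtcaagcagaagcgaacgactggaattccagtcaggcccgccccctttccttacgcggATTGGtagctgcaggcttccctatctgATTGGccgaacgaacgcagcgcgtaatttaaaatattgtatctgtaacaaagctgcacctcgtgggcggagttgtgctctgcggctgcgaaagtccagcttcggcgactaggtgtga
KIF2C: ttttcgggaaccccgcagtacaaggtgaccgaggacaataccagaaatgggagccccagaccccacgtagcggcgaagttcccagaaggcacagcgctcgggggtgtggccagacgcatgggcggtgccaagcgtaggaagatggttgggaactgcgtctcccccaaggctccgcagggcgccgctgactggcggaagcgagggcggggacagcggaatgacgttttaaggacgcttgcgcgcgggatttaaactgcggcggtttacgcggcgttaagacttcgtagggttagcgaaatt
KIF5B: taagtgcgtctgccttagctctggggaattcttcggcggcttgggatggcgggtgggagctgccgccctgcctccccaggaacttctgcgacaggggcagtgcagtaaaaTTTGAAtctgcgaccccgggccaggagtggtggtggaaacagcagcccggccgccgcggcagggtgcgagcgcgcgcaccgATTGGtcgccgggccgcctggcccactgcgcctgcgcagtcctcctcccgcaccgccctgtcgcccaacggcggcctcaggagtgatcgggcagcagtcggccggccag
In the mitotic promoters with both, the CCAAT box lay upstream of the CHR. Counting the start as 1 and the base before it as -1, the CHR began at -34 in KIF4A and at -55 in KIF23, with the box at -58 and -64. In KIF5B the order was the other way round, with the CHR at -140 and the box at -59.

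**Figure D1:**
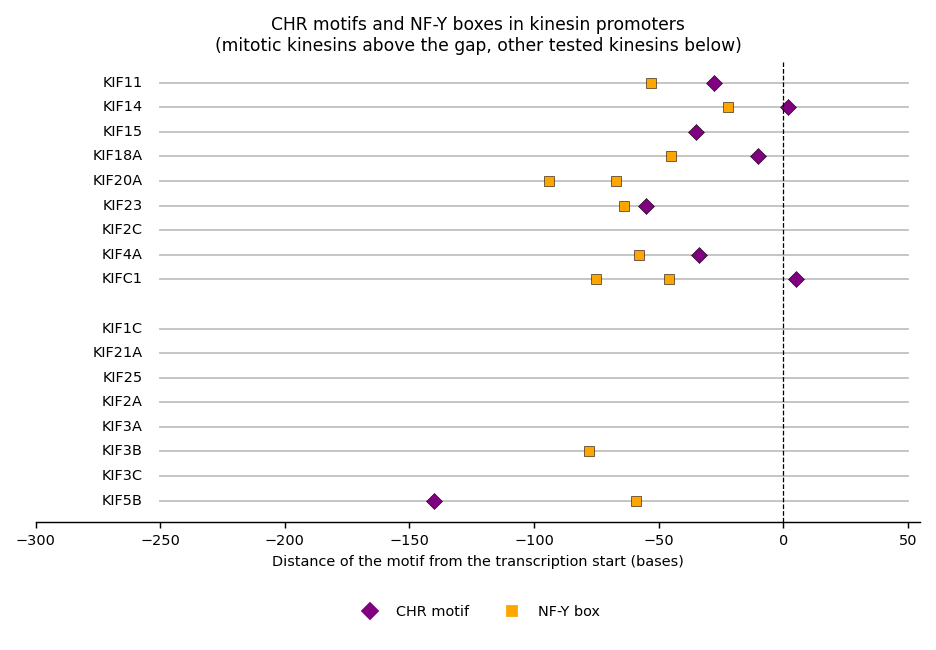
Positions of the CHR motif (diamonds) and the NF-Y box, CCAAT (squares), in the promoters of the 17 tested kinesins that had a single RefSeq promoter. The horizontal axis gives bases from the transcription start, the 9 mitotic kinesins stand above the gap and 8 others below it. Of the mitotic promoters, only that of KIF2C is without either mark, and below the gap only KIF3B and KIF5B carry marks.

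Some arrays went against their labels or stood apart, and the results below carry that limit. The cell cycle inhibitor CDKN1A and the ubiquitin ligase MDM2, both induced by p53 after DNA damage, served as a check on treatment. CDKN1A read 3069 to 5896 on the ING2_6K etoposide arrays and 11504 to 16293 on the ING2_6K DMSO arrays, while it read 14618 to 16638 on the ING2_WT etoposide arrays and 2964 to 4277 on the ING2_WT DMSO arrays. The direction on the arrays labelled ING2_6K (log2 change with etoposide -1.61, limma adjusted p = 0.0208) is thus opposite to that in ING2_WT cells (2.11, adjusted p = 0.00279). MDM2 rose with etoposide in ING2_WT cells by 2.17 (adjusted p = 0.00823), and its change of -1.51 on the arrays labelled ING2_6K did not pass the test (adjusted p = 0.0995), although the difference of effects did (-3.67, adjusted p = 0.00154). The second check gene, ING2 itself, read (on its tested probe) 11846 and 8853 on ING2_6K etoposide arrays 1 and 2 and at most 649.8 on the other 10 arrays. The arrays numbered 3 stood apart within their groups, most clearly ING2_WT etoposide 3, whose mean correlation with the other arrays of its group was 0.772, against 0.870 for each of those. Of the 9 mesenchymal markers, all reached 64 on at least 3 arrays, against 2 of 8 epithelial markers. Of 7 listed blood markers 6 had a probe, and 1 of these reached it. The summed blood markers were 129 to 156 with ING2_6K etoposide, 138 to 195 with ING2_6K DMSO, 179 to 363 with ING2_WT etoposide and 108 to 191 with ING2_WT DMSO. In etoposide 3 markers were lower on the arrays labelled ING2_6K than in ING2_WT cells: the blood marker CD14 by a log2 change of -2.53 (SE 0.51, limma adjusted p = 0.0184), the epithelial CDH1 by -2.40 (SE 0.56, adjusted p = 0.0339) and the mesenchymal TAGLN by -1.39 (SE 0.27, adjusted p = 0.0162). CD14 also passed the test for the difference of etoposide effects (-3.07, SE 0.72, adjusted p = 0.0262), and no other marker was called in any comparison. The leukocyte marker PTPRC was under 64 on all arrays. Their part in the results was not tested.

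The mitotic kinesins were high on the same 6 arrays and low on the other 6. Eg5, the product of KIF11, slides antiparallel microtubules and pushes the spindle poles apart. KIF11 read 754, 538 and 737 on the ING2_6K etoposide arrays and 14.3, 38.0 and 49.0 on the ING2_6K DMSO arrays. In ING2_WT cells it read 46.2, 52.4 and 86.9 with etoposide and 989, 1053 and 598 with DMSO. The ranges did not overlap in either cell line, and the order of the treatments was opposite. KIF15, a motor that helps KIF11 keep spindles bipolar, read 146, 181 and 239 with ING2_6K etoposide and 42.3, 16.7 and 42.6 with ING2_6K DMSO. With ING2_WT etoposide it read 30.8, 52.3 and 49.2, and with ING2_WT DMSO 191, 177 and 219. With the floor of 16 used in the fit, KIF15 had the smallest of the 9 changes in each comparison, whereas with a floor of 64 that of KIF18A was smaller in each. KIFC1 (HSET) walks to microtubule minus ends and bundles spindle poles. It read 997, 1056 and 717 with ING2_6K etoposide and 61.8, 36.2 and 65.5 with ING2_6K DMSO, and 56.7, 96.8 and 88.6 with ING2_WT etoposide against 1106, 1339.7 and 1005 with ING2_WT DMSO.

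Kinesins of chromosomes and kinetochores followed the same order. KIF18A, which dampens the oscillation of chromosomes at the tips of kinetochore fibers, read 223, 152 and 177 with ING2_6K etoposide and 23.6, 17.4 and 8.05 with ING2_6K DMSO. Its values were 25.4, 45.1 and 18.2 with ING2_WT etoposide, against 202, 209.7 and 162 with ING2_WT DMSO. KIF4A, a chromosome arm motor that also works with PRC1 in the midzone, showed narrow high groups. It read 253, 213 and 251 with ING2_6K etoposide and -2.91, 20.5 and 15.9 with ING2_6K DMSO, values below 0 being possible after background subtraction. In ING2_WT cells KIF4A read 22.4, 48.8 and 31.8 with etoposide and 274, 269.9 and 239 with DMSO. KIF2C (MCAK), which depolymerizes microtubule ends at centromeres, was the most variable of the 9. It read 440.2, 432 and 452 with ING2_6K etoposide and 30.8, 34.3 and 59.0 with ING2_6K DMSO. With ING2_WT etoposide KIF2C read 22.8, 124 and 11.1, against 434, 648 and 530 with ING2_WT DMSO, so that array 2 stood well above the other two of its group without reaching the DMSO arrays.

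Kinesins of the midzone and of cytokinesis completed the set. KIF20A (MKLP2) carries the chromosomal passenger complex to the midzone, and it was the only mitotic kinesin at 64 or more on all 12 arrays. Its values were 1072, 971 and 1295 with ING2_6K etoposide and 86.4, 67.4 and 95.9 with ING2_6K DMSO. In ING2_WT cells it read 172, 200 and 135 with etoposide and 1314, 1322 and 1244 with DMSO, where its 3 arrays were close together (1293 ± 42.8, SD, n = 3). KIF23 (MKLP1), the motor of centralspindlin, read 297, 319 and 464 with ING2_6K etoposide and 30.5, 43.4 and 57.3 with ING2_6K DMSO. It read 27.9, 92.0 and 64.9 with ING2_WT etoposide, against 495, 569.9 and 343 with ING2_WT DMSO. KIF14, a midbody motor of cytokinesis, read 298, 308 and 423 with ING2_6K etoposide and 36.7, 33.2 and 59.6 with ING2_6K DMSO, and 25.2, 48.1 and 13.3 with ING2_WT etoposide against 440.4, 389.6 and 543 with ING2_WT DMSO. All 9 genes shared the division of the arrays with no overlap, whichever part of the spindle they serve. In single comparisons of 3 arrays with 3, such a lack of overlap in these directions was seen in 9.4% to 14.2% of all genes tested. The share of all genes that divide the 6 high arrays from the other 6 was not counted.

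**Figure D2:**
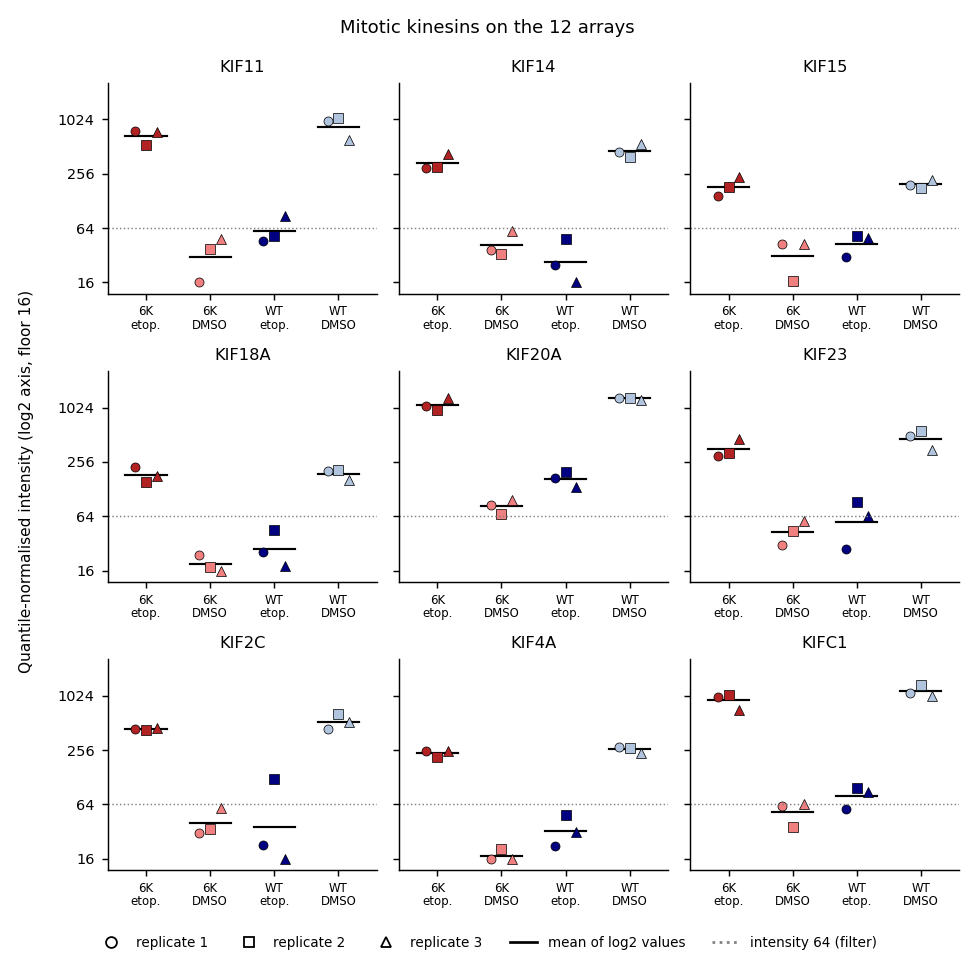
Quantile-normalized intensity of the 9 mitotic kinesins on each array (log2 axis, values under 16 drawn at 16), with groups from left to right ING2_6K etoposide, ING2_6K DMSO, ING2_WT etoposide and ING2_WT DMSO. Symbols mark replicates, bars the mean of log2 values, and the dotted line the intensity of 64 used as filter. In every panel the outer groups lie above the inner groups, and KIF20A alone stays above the line on all arrays.

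Etoposide in ING2_WT cells was compared with DMSO to ask which kinesin transcripts respond to DNA breaks. All 9 mitotic kinesins fell, where 2.95% of all genes tested were called lower (limma, Benjamini-Hochberg adjusted p under 0.05 over 11443 genes). Of the 9, KIF4A, KIF14, KIF15 and KIF18A passed the filter only through arrays where they were high, which limits this count and those of the comparisons below. The median of the 9 log2 changes was -3.06, against -0.0027 over all genes. KIF14 fell by 4.08 on the log2 scale (SE 0.40, adjusted p = 0.000384), KIFC1 by 3.86 (SE 0.33, adjusted p = 0.000226) and KIF11 by 3.84 (SE 0.44, adjusted p = 0.000717). KIF15 fell by 2.18 (SE 0.39, adjusted p = 0.00913). The other 5 lay between -3.90 (KIF2C) and -2.79 (KIF18A). In all 9 genes the 3 etoposide arrays lay below the 3 DMSO arrays, as in 10.3% of all genes tested. These fitted changes depend on the floor of 16, since the low groups were dim. KIF14, KIF4A, KIF15 and KIF18A were under 64 on every ING2_WT etoposide array, and with 64 in place of lower values they were at least 7.08-fold, 4.07-fold, 3.05-fold and 2.97-fold lower with etoposide. KIF20A, which needed no floor, was 7.75-fold lower.

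On the arrays labelled ING2_6K the same comparison ran the other way. All 9 mitotic kinesins were higher on the etoposide arrays than on the DMSO arrays and called, where 1.48% of all genes were called higher. Their median log2 change was 3.48, against -0.026 over all genes. KIF11 had a change of 4.43 (SE 0.44, adjusted p = 0.000213), KIFC1 of 4.11 (SE 0.33, adjusted p = 7.91e-05), KIF4A of 3.78 (SE 0.30, adjusted p = 7.91e-05) and KIF20A of 3.75 (SE 0.26, adjusted p = 4.32e-05). KIF15 had a change of 2.57 (SE 0.39, adjusted p = 0.00484). The groups did not overlap in any of the 9, as in 9.55% of all genes in that direction. All but KIF20A and KIFC1 were under 64 on each ING2_6K DMSO array, and with 64 in place of lower values KIF11 was at least 10.4-fold, KIF15 at least 2.89-fold and KIF18A at least 2.84-fold higher with etoposide. KIF20A, again without a floor, was 13.4-fold higher. The call of KIF2C (3.48, SE 0.61, adjusted p = 0.0129) was the least stable: it was lost when ING2_6K etoposide array 1, 2 or 3 or ING2_6K DMSO array 1 or 2 was left out, with adjusted p from 0.0575 to 0.0756.

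The difference between these etoposide effects was tested directly, as ING2_6K minus ING2_WT. It was positive and called for all 9 mitotic kinesins, where 3.85% of genes were called higher, with a median of 6.77 on the log2 scale against 0.0073 over all genes. KIF11 stood at 8.27 (SE 0.62, adjusted p = 1.11e-05) and KIFC1 at 7.97 (SE 0.46, adjusted p = 3.57e-06), while KIF15 stood at 4.75 (SE 0.56, adjusted p = 0.000292). KIF20A stood at 6.70 (SE 0.37, adjusted p = 3.03e-06). These values rest in part on the floor of 16, since most low groups were dim. With a floor of 64 the 9 genes were still called, and the differences were then 7.62 for KIFC1, 6.98 for KIF11, 6.70 for KIF20A, 5.52 for KIF2C, 5.23 for KIF14, 5.13 for KIF23, 3.92 for KIF4A, 3.14 for KIF15 and 3.08 for KIF18A.

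The cell lines were also compared at each treatment, with the same arrays. In DMSO all 9 mitotic kinesins were lower on the arrays labelled ING2_6K than in ING2_WT cells, where 2.18% of genes were called lower, with a median of -3.74 on the log2 scale and no overlap between the groups, as in 9.4% of all genes. KIF11 was lower by a log2 change of -4.78 (SE 0.44, adjusted p = 0.000114), KIFC1 by -4.44 (SE 0.33, adjusted p = 3.32e-05) and KIF15 by -2.65 (SE 0.39, adjusted p = 0.0026). KIF11 and KIF15 were under 64 on every ING2_6K DMSO array, and with 64 in place of lower values they were at least 13.3-fold and 3.05-fold lower there. In etoposide all 9 were higher on the arrays labelled ING2_6K, where 3.14% of genes were called higher, with a median of 2.87 and again no overlap, as in 14.2% of all genes. KIF14 was higher by 3.66 (SE 0.40, adjusted p = 0.00103), KIF2C by 3.63 (SE 0.61, adjusted p = 0.00857) and KIF15 by 2.10 (SE 0.39, adjusted p = 0.0131). These sizes depend on the floor of 16: with a floor of 64 they were 2.40, 2.47 and 1.53, below those of KIFC1 (3.48) and KIF11 (3.24). KIF15 lost this call without ING2_6K etoposide array 2 or 3 or ING2_WT etoposide array 1, at adjusted p from 0.052 to 0.0632. The 2 high groups were not equal in every gene: KIF20A averaged 1113 ± 166 with ING2_6K etoposide and 1293 ± 42.8 with ING2_WT DMSO, and KIF11 676 ± 120.1 and 879.7 ± 246 (SD, n = 3 each). That contrast differs in both cell line and treatment and was not tested. These comparisons share arrays with the etoposide comparisons above and are not separate evidence.

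**Figure D3:**
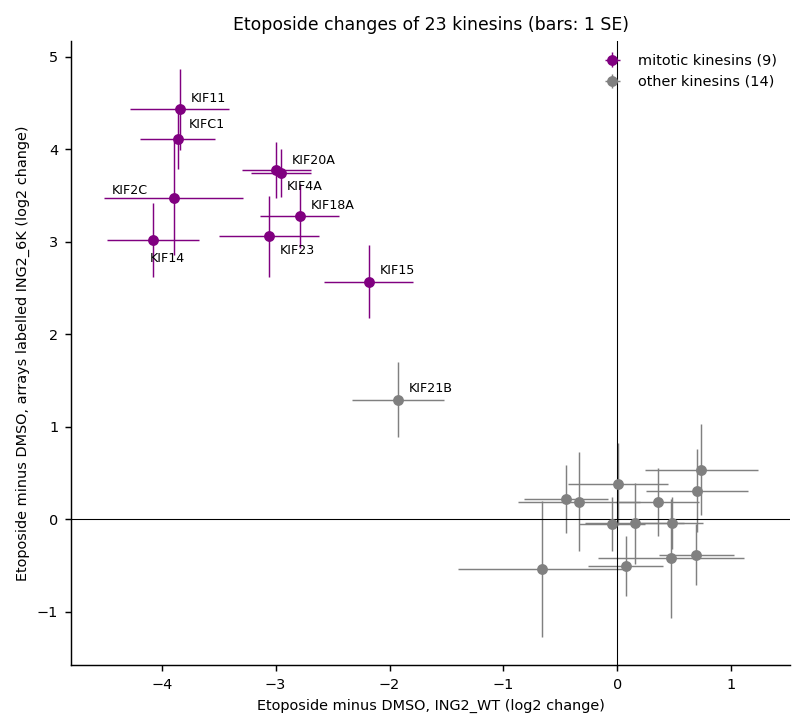
Log2 change with etoposide in ING2_WT cells (horizontal axis) and on the arrays labelled ING2_6K (vertical axis) for the 23 tested kinesins, with bars of 1 SE from limma. The 9 mitotic kinesins lie at the upper left, between -4.08 and -2.18 on the horizontal axis and between 2.57 and 4.43 on the vertical axis, KIF21B lies between them and the origin, and the other 13 scatter around 0.

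Second probes bear on the mitotic values. The 2 probes of KIF11 moved together: the second read 363, 325 and 371 with ING2_6K etoposide, 22.9, 33.4 and 54.6 with ING2_6K DMSO, 33.4, 52.1 and 25.4 with ING2_WT etoposide and 435, 580.3 and 326 with ING2_WT DMSO. Its change with etoposide was -3.62 (SE 0.39, adjusted p = 0.000795 over all kept probes) in ING2_WT cells and 3.34 (SE 0.39, adjusted p = 0.000899) on the arrays labelled ING2_6K. The second probe of KIF23 was under 64 on all arrays, yet its values of 33.7 to 45.0 with ING2_6K etoposide and 35.4 to 49.5 with ING2_WT DMSO lay above all those of the other groups, which reached 24.3. The second probe of KIF18A reached at most 43.2 with no such order. These probes were not tested apart from KIF11.

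The other kinesins showed no shared movement. Of the 14 tested, KIF21B alone was called with etoposide in ING2_WT cells, none was called on the arrays labelled ING2_6K, and KIF21B alone was called for the difference of effects. In those comparisons 4.89%, 1.63% and 6.49% of all genes were called in either direction. The medians of the 14 log2 changes were 0.11, 0.07 and -0.18. At an unadjusted p under 0.05, KIF21B stood alone in the first and the second comparison, and KIF21A joined it in the third (-1.08, SE 0.47, adjusted p = 0.205), where 19.2%, 9.49% and 22% of all genes were under that p. In DMSO none of the 14 differed between the cell lines by this call, with 2.48% of all genes called, and KIF21B alone was under an unadjusted p of 0.05, as were 11% of all genes. In etoposide KIF21B alone was called, with 5.51% of all genes called, and KIF21A was at -0.76 (SE 0.33, adjusted p = 0.189). These were the 2 of the 14 under an unadjusted p of 0.05 there, as were 24.4% of all genes.

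KIF21B, a kinesin known from neurons and immune cells that also limits microtubule growth, had values near the filter. It read 74.3, 57.0 and 79.4 with ING2_6K etoposide and 27.4, 16.6 and 50.2 with ING2_6K DMSO. In ING2_WT cells it read 21.7, 14.4 and 19.9 with etoposide and 77.2, 98.7 and 50.1 with DMSO. Its 2 high groups were those of the mitotic kinesins, although the highest ING2_6K DMSO value met the lowest ING2_WT DMSO value. KIF21B passed the filter only through arrays of those 2 groups. It fell by 1.93 with etoposide in ING2_WT cells (SE 0.40, adjusted p = 0.0198), whereas its change on the arrays labelled ING2_6K was 1.30 (SE 0.40, adjusted p = 0.233). The difference of effects was 3.22 (SE 0.57, adjusted p = 0.00539) and the contrast of ING2_6K with ING2_WT in etoposide 1.87 (SE 0.40, adjusted p = 0.0245). With a floor of 64 none of its calls remained, the difference then being 0.47 (adjusted p = 0.371). Leaving out ING2_WT etoposide 2 or ING2_WT DMSO 1 or 2 also ended its call in ING2_WT cells, at adjusted p of 0.0619 to 0.0909. Its call between the cell lines in etoposide was lost without any of the 3 ING2_6K etoposide arrays or without ING2_WT etoposide 1 or 2, at 0.06 to 0.0962. Its 2 further probes were under 64 on all arrays.

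Among the cargo motors, KIF5B is the ubiquitous heavy chain of conventional kinesin, which carries mitochondria, vesicles and messenger RNAs. It read 509, 532 and 733 with ING2_6K etoposide and 591, 597 and 624 with ING2_6K DMSO, and 882, 879 and 521 with ING2_WT etoposide against 800, 861 and 646 with ING2_WT DMSO. The groups overlapped in each cell line, and the changes with etoposide were -0.05 (SE 0.29) in ING2_WT cells and -0.05 (SE 0.29) on the arrays labelled ING2_6K. KIF5B is the gene whose promoter held both motifs above. KIF1C, a motor of integrin vesicles and messenger RNA, averaged 184 ± 6.17 with ING2_6K etoposide and 189.9 ± 22.1 with ING2_6K DMSO, and 189.9 ± 52.8 with ING2_WT etoposide against 134 ± 22.9 with ING2_WT DMSO (SD, n = 3 each). KIF2A, a depolymerase of spindle poles and neurites that the mitotic list leaves out, averaged 286 ± 101 and 392 ± 49.3 on the ING2_6K etoposide and DMSO arrays, and 461 ± 145 and 430.4 ± 81.7 in the matching ING2_WT groups. Its changes with etoposide were -0.50 (SE 0.33, adjusted p = 0.666) on the arrays labelled ING2_6K and 0.07 (SE 0.33) in ING2_WT cells, so this spindle kinesin did not pass the test in either line.

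Single arrays weighed on several transport kinesins. KIF3B, a motor subunit of intraflagellar transport, read 529.8, 455 and 46.5 with ING2_WT etoposide, against 377, 467 and 251 with ING2_WT DMSO, and its second kept probe gave 267, 315 and 51.2 with etoposide and 365, 304 and 246 with DMSO. The third ING2_WT etoposide array was therefore low on both probes. KIF1B, a mitochondrial and vesicle motor, was high on that array, with 467, 559.9 and 1432 with ING2_WT etoposide and 427, 353 and 579.9 with ING2_WT DMSO. Its second kept probe stood out less there, with 92.9, 199.8 and 277 with ING2_WT etoposide and 131, 170 and 170 with ING2_WT DMSO. KIF5C, a heavy chain of conventional kinesin best known from neurons, read 97.0, 123 and 503 with ING2_WT etoposide, against 177, 215 and 315 with ING2_WT DMSO. On the arrays labelled ING2_6K the third DMSO array was high for KIFC2, a minus-end motor: its values were 418, 704 and 503 with etoposide and 219.9, 293 and 749.9 with DMSO. The remaining tested genes, KIF3A, KIF3C, KIF13B, KIF21A, KIF25 and KIFC3, lay between 11.9 and 544 with overlapping groups in most comparisons.

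Without the arrays numbered 3, all 9 mitotic kinesins kept each of the 5 calls and their directions. The share of all genes called then grew to 28.8% with etoposide in ING2_WT cells, 35% on the arrays labelled ING2_6K and 35.4% for the difference of effects, and to 23.2% in DMSO and 39.7% in etoposide between the cell lines. Of the 14 others, 3, 4, 2, 4 and 7 were called in these comparisons, to be read against those shares. KIF21B was among them each time, and its change on the arrays labelled ING2_6K was then 1.61 (SE 0.30, adjusted p = 0.0105). With etoposide KIF25 and KIF5C also fell in ING2_WT cells, by 1.00 (SE 0.20, adjusted p = 0.0142) and 0.84 (SE 0.24, adjusted p = 0.0423). KIF25 was under 64 on every ING2_WT etoposide array, and with all arrays its change was -0.45 (SE 0.37, adjusted p = 0.553). On the arrays labelled ING2_6K, KIF2A fell by 0.87 (SE 0.14, adjusted p = 0.00747), while KIF1B and KIFC2 were higher by 0.57 (SE 0.16, adjusted p = 0.0355) and 1.10 (SE 0.27, adjusted p = 0.0248). KIF5B was lower on the arrays labelled ING2_6K than in ING2_WT cells in both treatments, by log2 changes of -0.48 (SE 0.12, adjusted p = 0.0359) in DMSO and -0.76 (SE 0.12, adjusted p = 0.00523) in etoposide. So was KIF3A, which read at most 91.7 on any array, by -1.25 (SE 0.25, adjusted p = 0.0152) and -0.86 (SE 0.25, adjusted p = 0.0327). KIF25 was also called lower there in DMSO. In etoposide KIF2A and KIF21A were also called lower, and KIF13B and KIF5C higher.

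**Figure D4:**
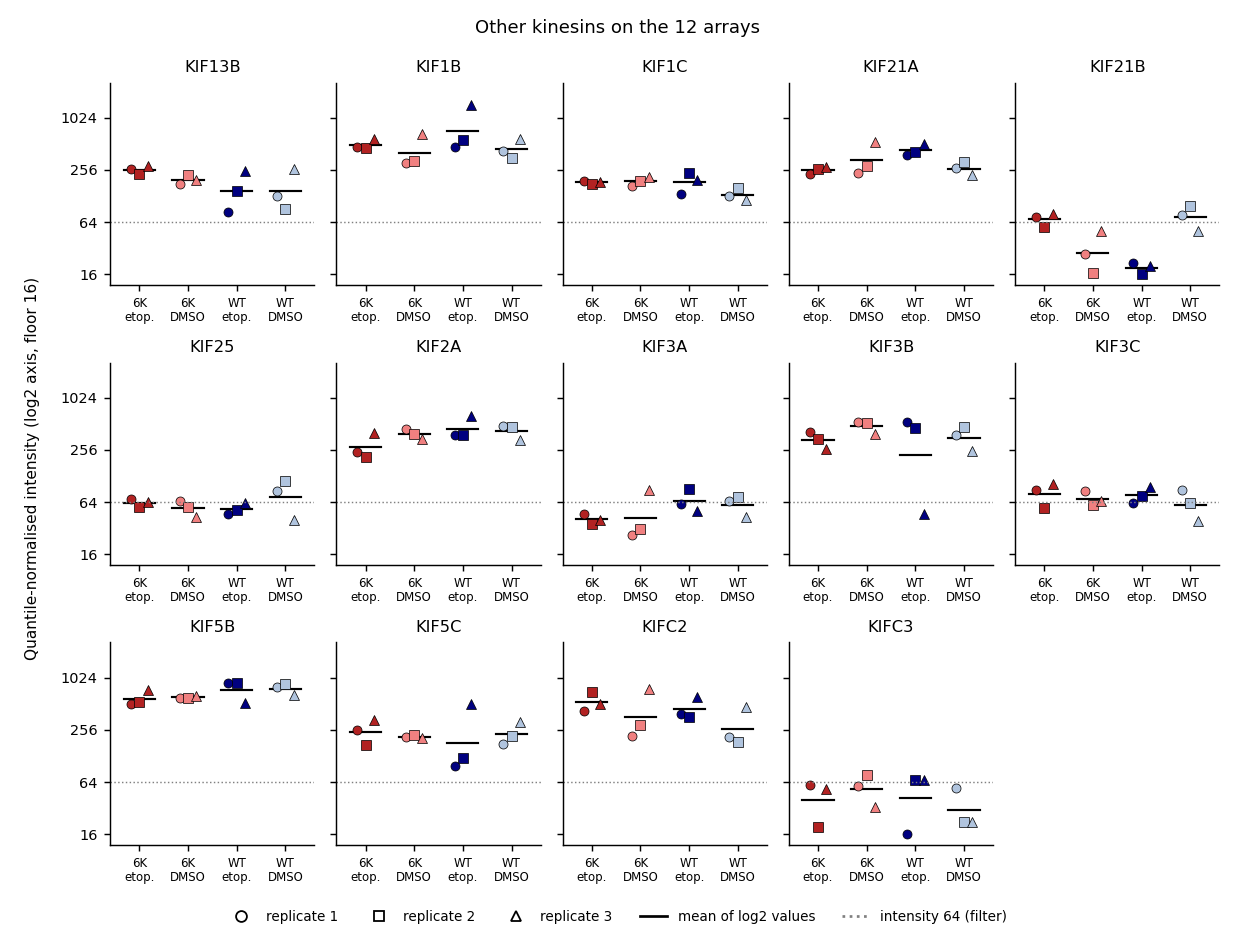
Quantile-normalized intensity of the 14 other tested kinesins on each array, drawn as for the mitotic kinesins. In KIF21B the outer groups lie above the inner groups except that ING2_6K DMSO array 3 meets ING2_WT DMSO array 3, most other panels show overlapping groups, and the third ING2_WT etoposide array (triangle) stands apart for KIF3B, KIF1B and KIF5C.

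By array, the median log2 intensity of the 9 mitotic kinesins was 8.22 to 8.82 with ING2_6K etoposide and 4.94 to 5.84 with ING2_6K DMSO, and 4.80 to 5.71 with ING2_WT etoposide against 8.78 to 9.15 with ING2_WT DMSO. No array of a high group came near a low group. The median of the 14 others was 7.60 to 8.08 with ING2_6K etoposide, 7.60 to 7.80 with ING2_6K DMSO, 6.83 to 7.80 with ING2_WT etoposide and 7.23 to 7.88 with ING2_WT DMSO, so the groups overlapped. On the high arrays all 9 mitotic kinesins were at 64 or more, against 1 or 2 of 9 on the ING2_6K DMSO arrays and 1 to 4 of 9 on the ING2_WT etoposide arrays. The filter fixes these counts in part, since KIF4A, KIF14, KIF15 and KIF18A passed it only through the high arrays.

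**Figure D5:**
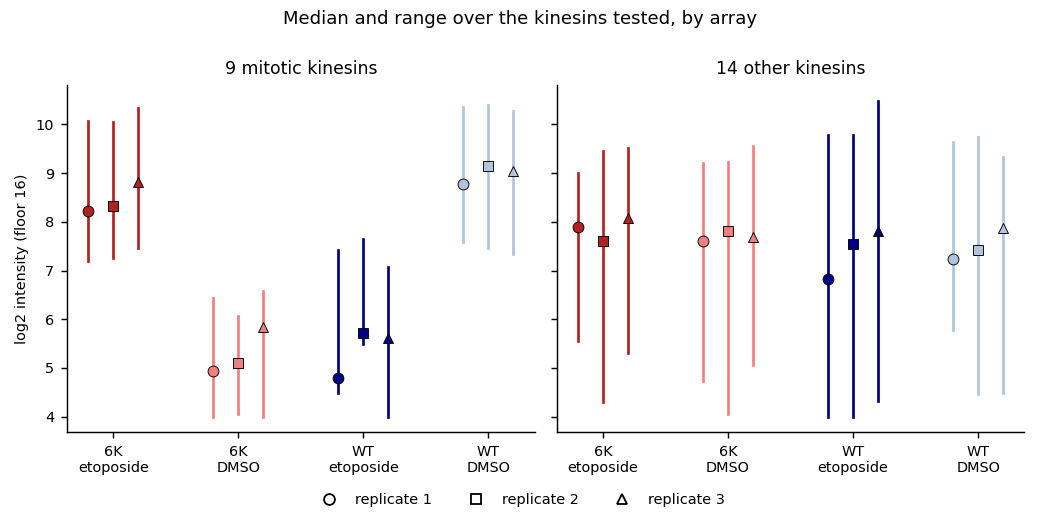
Median (symbol) and range (line) of the log2 intensity over the 9 mitotic kinesins (left) and the 14 other tested kinesins (right) on each array, with groups in the order ING2_6K etoposide, ING2_6K DMSO, ING2_WT etoposide and ING2_WT DMSO. Mitotic medians are 8.22 to 9.15 in the outer groups and 4.80 to 5.84 in the inner groups, whereas the medians of the others stay between 6.83 and 8.08.

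The kinesins left untested were mostly dim. None of the 6 genes of cilia (KIF6, KIF7, KIF9, KIF19, KIF24 and KIF27) met the filter, nor did KIF2B and KIF18B, spindle depolymerases outside the mitotic list. Among the motors of neurons and endosomes, KIF1A, KIF5A, KIF13A, KIF16B and KIF17 did not meet it, and KIF12 and KIF26B were also left out. KIF18B read up to 131, on ING2_WT etoposide 3, where KIF12 and KIF27 also had their highest values (82.5 and 89.2). A probe of KIF24, a centriolar depolymerase that opposes the growth of cilia, was picked after its values were seen. It read 45.3, 63.9 and 34.7 with ING2_6K etoposide, 14.1, 14.0 and 13.8 with ING2_6K DMSO, 8.57, 27.2 and 7.10 with ING2_WT etoposide and 64.6, 40.5 and 41.3 with ING2_WT DMSO, the order of the mitotic kinesins at the edge of the filter. The other KIF24 probe lay between 34.9 and 63.7 on all arrays with no such order.

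Motors and partners of the spindle that the names do not catch moved with the mitotic kinesins. Of 23 listed genes, all tested, 19 fell with etoposide in ING2_WT cells, where 2.95% of all genes fell, and 0 rose, with a median log2 change of -2.66. On the arrays labelled ING2_6K, 18 were higher with etoposide (1.48% of all genes) and 0 lower, with a median of 3.21, and 21 were called higher for the difference of effects (3.85% of all genes). Between the cell lines 21 were lower in DMSO and 19 higher in etoposide on the arrays labelled ING2_6K, against 2.18% and 3.14% of all genes. The list includes CENPE, the kinetochore kinesin, whose changes with etoposide were -2.22 (SE 0.41, adjusted p = 0.0109) in ING2_WT cells and 3.21 (SE 0.41, adjusted p = 0.00171) on the arrays labelled ING2_6K. KIF20B, an abscission motor listed on the array under its older symbol MPHOSPH1, had changes of -2.56 (SE 0.35, adjusted p = 0.00204) and 2.39 (SE 0.35, adjusted p = 0.00371). PRC1, which bundles midzone microtubules and binds KIF4A, had changes of -3.57 (SE 0.32, adjusted p = 0.000226) and 4.44 (SE 0.32, adjusted p = 4.32e-05). DLGAP5, a stabilizer of kinetochore fibers, had changes of -4.44 and 4.86 (SE 0.34 each, adjusted p = 0.000226 and 4.32e-05). CKAP5, a microtubule polymerase, passed the test in none of the 5 comparisons, and its change with etoposide in ING2_WT cells was -0.71 (SE 0.33, adjusted p = 0.267). NUMA1, a spindle pole protein that is nuclear in interphase, passed it only between the cell lines in etoposide (1.27, SE 0.31, adjusted p = 0.0407).

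Partners of transport were rarely called, as were all genes. Of 29 genes for kinesin adaptors, dynein and dynactin, 24 were tested, and 0 passed the test with etoposide in ING2_WT cells, on the arrays labelled ING2_6K, for the difference of effects or between the cell lines in DMSO, where 4.89%, 1.63%, 6.49% and 2.48% of all genes did. The medians of their changes were 0.38, -0.27, -0.48 and 0.19, against -0.0027, -0.026, 0.0073 and 0.0427 over all genes. Of the 24, 19 had a positive change with etoposide in ING2_WT cells, as had 5710 of all 11443 genes. On the arrays labelled ING2_6K 19 had a negative change, as had 5927 of all genes. The difference of effects, made from these 2 changes, was negative in 19 of the 24 and in 5692 of all genes. At an unadjusted p under 0.05 stood 1, 2, 5 and 0 of the 24 (limma), against 19.2%, 9.49%, 22% and 11% of all genes. In etoposide 1 was called between the cell lines, where 5.51% of all genes were: DCTN6, a dynactin subunit, was lower on the arrays labelled ING2_6K by a log2 change of -1.36 (SE 0.36, adjusted p = 0.0493). The median of the 24 there was -0.43, against 0.0329 over all genes. At an unadjusted p under 0.05 stood 4 of the 24 (limma), against 24.4% of all genes. In 10 of the 24 the ING2_6K arrays lay below the ING2_WT arrays without overlap, against 19.2% of all genes. With etoposide in ING2_WT cells 6 of the 24 lay higher without overlap, against 13.3% of all genes, and 0 lower. On the arrays labelled ING2_6K 6 lay lower with etoposide without overlap, against 9.67% of all genes, and 0 higher. DCTN1, the large subunit of dynactin, had a change of 0.73 with etoposide in ING2_WT cells (SE 0.27, adjusted p = 0.165).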

How the data were processed

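The deposited values were linear probe intensity. Background subtraction and scaling between arrays had been done by the authors, who name Genespring, and the method is not given in the sources used here. A second deposited column, of unit other, paired each probe with its gene symbol. The signal and detection columns, 24 in number, matched no label and were not used. Intensities were quantile-normalized, with a floor of 16 applied before the log2 step. Of the probes, 36101 had 1 symbol, and 4444 symbols were updated through the RefSeq gene table. Probes with 64 or more on at least 3 arrays were kept, with the probe of highest mean log2 value standing for its gene, which left 11443 genes. A model of 4 group means was fitted to 12 arrays in limma 3.58.1 (R 4.3.3), with two-sided tests and Benjamini-Hochberg adjustment over all genes, called under 0.05. The fit was tested on simulated data. Standard errors had a median of 0.433 for log2 changes and 0.613 for the difference of effects. The number of arrays limits the precision.

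The mitotic list, the lists of spindle and transport partners and the alternatives were chosen with earlier results of these data known. Values are given for every mitotic kinesin and for each other kinesin called in a comparison, with examples from the rest, and for partners with small adjusted p, some chosen once their values were known. Deviations of same-numbered arrays from their group means correlated at 0.244 to 0.348 between treatments in ING2_WT cells. Between cell lines in DMSO they correlated at 0.376 to 0.637. The range was -0.039 to 0.403 on the arrays labelled ING2_6K and 0.0999 to 0.267 between cell lines in etoposide. The tests reported above used no pairing, and same-numbered arrays were linked only in the replicate block below. Alternatives covered the scaling, floor, filter, probe choice, arrays in the fit, replicate block, array weights, an unmoderated model and leaving out arrays.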

Additional observations from a re-analysis of the deposited data

Results flagged for a closer look

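The etoposide effect differed between the arrays labelled ING2_6K and ING2_WT cells for 10 of the 23 kinesins tested, where 6.49% of all genes were called. This is by the test of the difference itself (limma, adjusted over all genes, ING2_6K minus ING2_WT, log2 scale). For the spindle pole motors the difference was 8.27 for KIF11 (adjusted p = 1.11e-05), 7.97 for KIFC1 (3.57e-06) and 4.75 for KIF15 (0.000292). For the chromosome and kinetochore motors it was 7.37 for KIF2C (0.000302), 6.77 for KIF4A (4.13e-06) and 6.07 for KIF18A (2.1e-05). For the midzone and cytokinesis motors it was 7.10 for KIF14 (1.95e-05), 6.70 for KIF20A (3.03e-06) and 6.12 for KIF23 (0.000123). These sizes rest on a floor of 16 under dim groups: with a floor of 64 they were 7.62 for KIFC1, 6.98 for KIF11, 5.52 for KIF2C, 5.23 for KIF14, 5.13 for KIF23, 3.92 for KIF4A, 3.14 for KIF15 and 3.08 for KIF18A, each still called, with KIF20A at the same 6.70. KIF21B stood at 3.22 (0.00539), on values near the filter, and at 0.47 (0.371) with the floor of 64. For the 9 mitotic kinesins each difference joins a higher level with etoposide on the arrays labelled ING2_6K to a lower one in ING2_WT cells. Beside them, the check gene CDKN1A read 3069 to 5896 with etoposide and 11504 to 16293 with DMSO on the arrays labelled ING2_6K, against 14618 to 16638 with etoposide and 2964 to 4277 with DMSO in ING2_WT cells. Whether the treatment labels of those arrays account for the differences was not tested.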

How the results depend on the processing

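The count of 9 mitotic kinesins called in each comparison fell to 1 with 64 or more on all 12 arrays, because only KIF20A was then tested, and to 8 where KIF2C or KIF15 alone lost its call. Leaving out each array in turn gave 8 to 9 on the arrays labelled ING2_6K and for ING2_6K against ING2_WT in etoposide, with 9 in the other comparisons. KIF2C lost its call on the arrays labelled ING2_6K with no filter (adjusted p = 0.0575) and in the unmoderated model (0.0543), and in ING2_WT cells (0.0687) and for ING2_6K against ING2_WT in etoposide (0.0591) when only the groups compared were fitted. No log2 change of a mitotic kinesin or of KIF21B reversed.

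The count of other kinesins called, 1 with etoposide in ING2_WT cells, 0 on the arrays labelled ING2_6K, 1 for the difference, 0 in DMSO and 1 in etoposide, moved more often. A floor of 64, and the filter on all 12 arrays, each gave 0 in ING2_WT cells, for the difference and for ING2_6K against ING2_WT in etoposide. Fitting only the groups compared gave 0 in ING2_WT cells. With no filter the count was 1 on the arrays labelled ING2_6K, 2 for the difference and 1 in DMSO, through KIF17, whose values never reached 64. Array weights gave 4, 4, 3, 5 and 7 in the order above, where 30.6%, 39.7%, 40.2%, 28.8% and 43% of all genes were called, although the estimate of the weights stopped before it converged, and leaving out the arrays numbered 3 gave 3, 4, 2, 4 and 7. Leaving out each array in turn gave 0 to 1, except 1 each time for the difference. KIF21B alone made the count of 1 on the arrays labelled ING2_6K and in DMSO without ING2_6K DMSO 3.

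The replicate block left these counts at 9 mitotic kinesins in each comparison and at 1, 0, 1, 0 and 1 others. It changed no other call among them. Of all genes it called 1210 against 559 in ING2_WT cells, 348 against 186 on the arrays labelled ING2_6K and 1738 against 743 for the difference. Between the cell lines it called 485 against 284 in DMSO and 1967 against 630 in etoposide. Scaling to the 75th percentile moved the median log2 change of all genes by up to 0.14, for the difference of effects, which then stood at 0.15 on the log2 scale. The cause of these changes was not tested unless given. Signal over background limits the low groups: most mitotic kinesins were under 64 there, so the fitted size of their changes depends on the floor.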
